A study of Mus musculus with 1 sample.

Results

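Dmrt1 and Dmrtb1 are 2 of the 27998 genes listed for a single-cell RNA sequencing library of the mouse testis, and both were found by symbol (identifiers ENSMUSG00000024837 and ENSMUSG00000028610). The library came from wild-type C57BL/6 mice at postnatal day 8 and served as the control for a Zscan2 knockout, which was not analysed here. Cells of 3 mice were pooled in equal numbers after magnetic selection for THY1, a surface antigen used to enrich undifferentiated spermatogonia, and unselected testis cells were added back, so the shares of cell types reflect this mixing. The pool is 1 sample: cells are not replicates, no difference could be tested across animals, and every interval below is a 95% interval that covers counting error only.

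Both genes encode transcription factors with a DM domain, a zinc-binding DNA-binding domain first described in the sex-determining factors doublesex and mab-3. DMRT1 is known in the postnatal testis from both lineages of the tubule: in spermatogonia it restrains entry into meiosis and limits the response to retinoic acid, and in Sertoli cells, the somatic cells that nurse the germ cells, it maintains male identity. DMRTB1, also called DMRT6, is known from differentiating spermatogonia, in which it takes part in the change from the mitotic to the meiotic program.

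Dmrt1 lies on the forward strand of chromosome 19 at chr19:25505618-25604329 (GRCm38, GENCODE vM21) and is followed after 5971 bp by another family gene, Dmrt3. Dmrtb1 lies on the reverse strand of chromosome 4 at chr4:107676290-107684230. Neither overlaps another annotated gene. Both have 3 annotated transcripts, of which 2 are protein coding. The stretch that the encoded proteins share is shown because it is where the genes are alike in sequence. It spans 58 residues, of which 35 (60.3%) are identical, including 6 cysteines and 2 histidines, the residue types that bind zinc in this domain. The coding bases are identical at 109 of 174 positions (62.6%). In Dmrt1 the stretch codes for residues 70 to 127 of 374 and is split over exons 1 and 2 of transcript Dmrt1-201 (between 25506061 and 25509712), and in Dmrtb1 it codes for residues 3 to 60 of 359 within exon 1 of Dmrtb1-201 (107683983 to 107684156). Below, the bases run 5′ to 3′ on the coding strand, with the intron of Dmrt1 left out, and capitals mark codons for an amino acid that both proteins have at that position.
Dmrt1: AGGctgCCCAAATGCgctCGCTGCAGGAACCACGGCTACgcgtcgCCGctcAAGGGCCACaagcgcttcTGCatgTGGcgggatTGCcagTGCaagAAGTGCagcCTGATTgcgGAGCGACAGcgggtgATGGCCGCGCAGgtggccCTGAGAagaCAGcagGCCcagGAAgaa
Dmrtb1: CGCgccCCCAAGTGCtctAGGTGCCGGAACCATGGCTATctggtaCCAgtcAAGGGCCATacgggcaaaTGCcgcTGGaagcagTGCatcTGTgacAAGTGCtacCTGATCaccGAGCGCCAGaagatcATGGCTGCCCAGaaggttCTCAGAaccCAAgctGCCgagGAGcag

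Of 970 barcodes, 920 passed the filters, with a median of 9223 unique molecular identifiers (UMIs, each a captured transcript molecule). Cells were clustered on 897 variable genes from which Dmrt1 and Dmrtb1 were left out, and clusters were named from markers that include neither gene. The 324 germ cells fell into 110 cells with markers of spermatogonial stem cells (SSC-like), 78 progenitor-like cells and 136 differentiating-like cells. The differentiating-like cells formed a cluster of 104 cells led by Stra8 and Crabp1 and a cluster of 32 cells led by Esx1 and Prss50. Among the 596 somatic cells, Sertoli-like cells were the most frequent (255), followed by stromal-like (186) and peritubular myoid-like cells (94), and leukocytes were either macrophage-like (35) or T cell-like (26). The name of the T cell-like cluster rests on 4 detected markers, and myoid markers scored next. Depth differed between classes, with medians of 22607.5 UMIs per SSC-like, 19373.5 per progenitor-like, 10779 per differentiating-like, 8343 per Sertoli-like and 8370.5 per stromal-like cell. Levels are therefore given as the summed UMIs of a gene per 1000000 UMIs of the class (CPM), and shares of cells with a UMI also after thinning each cell to 5000 UMIs, with shallower cells left out.

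Dmrt1 was abundant in every germ cell class and changed little between them. It had 693 UMIs in SSC-like cells, or 283 CPM (262 to 305), 456 UMIs and 321 CPM (292 to 352) in progenitor-like cells, and 529 UMIs and 314 CPM (287 to 342) in differentiating-like cells. Of the 15458 genes with a UMI in SSC-like cells, 486 had more UMIs than Dmrt1. The level in differentiating-like cells differed from that in SSC-like cells by a log2 ratio of 0.15 (−0.02 to 0.31) and from that in progenitor-like cells by −0.03 (−0.22 to 0.15), both within counting error. Other settings gave up to 0.50 over SSC-like cells, at resolution 1.2, and down to −0.24 over progenitor-like cells, with 2000 variable genes by vst, with intervals that left out 0. SSC-like cells were lower than progenitor-like cells by a log2 ratio of −0.18 (−0.35 to −0.01). This small difference kept its sign but ranged from −0.61 to −0.13 under the other settings that formed both classes.

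The flat mean hid a difference between the clusters of differentiating-like cells. Dmrt1 stood at 348 CPM (316 to 381) in the cluster led by Stra8 and Crabp1 and at 207 CPM (165 to 256) in the cluster led by Esx1 and Prss50, a log2 ratio of −0.75 (−1.10 to −0.41). Ordered by level, the Stra8 and Crabp1 cluster and the progenitor-like cells came first with overlapping intervals, SSC-like cells followed, and the Esx1 and Prss50 cluster was the lowest of the germ clusters, its interval below that of the SSC-like cells. Single germ cells held up to 23 Dmrt1 UMIs. The mean was 6.30 ± 3.87 UMIs per SSC-like cell (SD over 110 cells), 5.85 ± 4.66 per progenitor-like cell (78 cells) and 3.89 ± 3.61 per differentiating-like cell (136 cells), in the order of the depths.

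Dmrtb1 was concentrated in differentiating-like cells. It had 34 UMIs in SSC-like cells, or 13.9 CPM (9.62 to 19.4), 3 UMIs and 2.11 CPM (0.44 to 6.17) in progenitor-like cells, and 137 UMIs and 81.2 CPM (68.2 to 96.0) in differentiating-like cells. The log2 ratio of differentiating-like to SSC-like cells was 2.55 (2.0 to 3.13), and that to SSC-like and progenitor-like cells together was 3.09 (2.55 to 3.65). Differentiating-like cells held 78.7% of the Dmrtb1 UMIs of all germ cells and 31.5% of the Dmrt1 UMIs, against 30.4% of all UMIs. Of 6064 genes with at least 100 UMIs in the germ cells compared, 9 had a larger ratio of differentiating-like to undifferentiated cells than Dmrtb1, and 4.34% were past 2-fold higher. Dmrtb1 passed this filter through its 137 differentiating-like UMIs, against 37 in undifferentiated cells, so the rank is a description. At a limit of 30 UMIs, 19 of 9571 genes had a larger ratio.

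Between the clusters of differentiating-like cells, the Dmrtb1 level differed in the opposite direction to that of Dmrt1. It stood at 65.6 CPM (52.3 to 81.2) in the Stra8 and Crabp1 cluster and at 130.5 CPM (97.7 to 171) in the Esx1 and Prss50 cluster, a log2 ratio of 0.99 (0.47 to 1.51). The number of Dmrtb1 UMIs per Dmrt1 UMI, which does not depend on depth or on other genes, was 0.049 (0.034 to 0.069) in SSC-like cells, 0.0066 (0.0014 to 0.019) in progenitor-like cells, 0.189 (0.148 to 0.239) in the Stra8 and Crabp1 cluster and 0.631 (0.439 to 0.900) in the Esx1 and Prss50 cluster. All intervals of this measure were apart from each other.

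The lower Dmrtb1 level in progenitor-like than in SSC-like cells depended on how the cells were divided. The log2 ratio of SSC-like to progenitor-like cells was 2.72 (1.05 to 5.07), with only 3 UMIs in the lower class. At a clustering resolution of 1.2, which named 45 cells SSC-like and 138 progenitor-like, it was −0.33 (−1.68 to 0.84), so no order of these classes can be read. In SSC-like cells, 22 cells held 1 Dmrtb1 UMI and 6 held 2, and no cell held more. In differentiating-like cells, 24 held 3 or more.

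**Figure D1:**
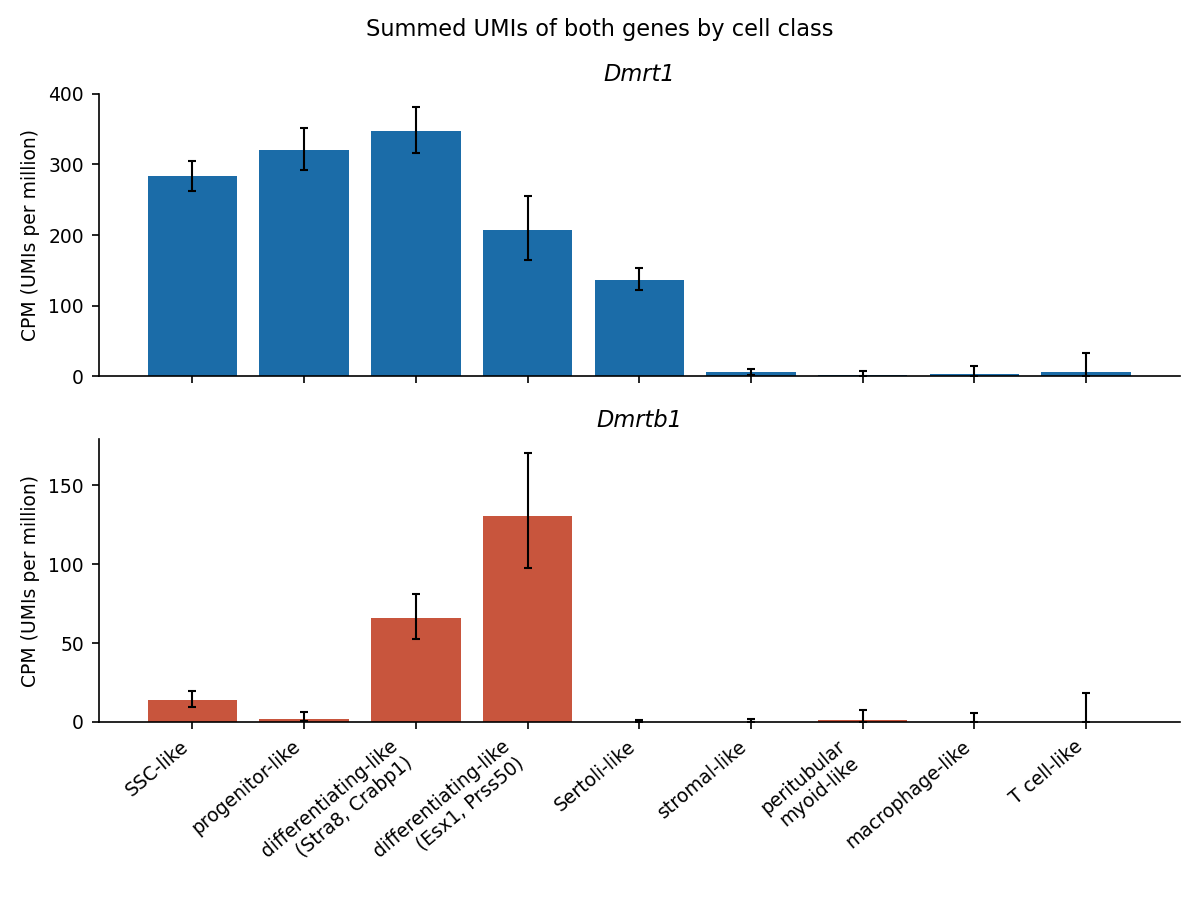
Dmrt1 (top) and Dmrtb1 (bottom) in CPM for each cell class, with the differentiating-like clusters shown by their leading genes. Bars are CPM, lines are 95% exact Poisson intervals, and for classes with no UMI the line ends at the level of 3 counts; Dmrt1 stands between 207 and 348 CPM in the germ clusters and at 137 CPM in Sertoli-like cells, and Dmrtb1 is highest at 130.5 CPM in the Esx1 and Prss50 cluster.

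Somatic cells separated the genes. Sertoli-like cells carried 314 Dmrt1 UMIs, or 137 CPM (122 to 153), which was 0.453 times (0.400 to 0.511) the level in all germ cells at 302 CPM. The 3 Sertoli-like clusters had 141, 140 and 122 CPM, and all log2 ratios between them had intervals that held 0. The other somatic classes had 13 Dmrt1 UMIs between them: 9 in stromal-like cells (5.48 CPM, 2.51 to 10.4), 1 in peritubular myoid-like, 2 in macrophage-like and 1 in T cell-like cells. Dmrt1 was 25-fold (13.0 to 55.1) higher in Sertoli-like than in stromal-like cells of nearly equal depth.

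Dmrtb1 was not detected in Sertoli-like cells. None of the 255 cells had a UMI, which allows a share of up to 1.18% of cells with a UMI and a level of up to 1.31 CPM. Against 31.3 CPM (26.8 to 36.3) in all germ cells, the level that 3 counts give is 24.0-fold lower, and the exact interval of the ratio, which also covers counting error in the germ cells, ends at 0.052. No UMI was found in stromal-like cells either (up to 1.83 CPM), nor in macrophage-like (up to 5.81 CPM) or T cell-like cells (up to 18.2 CPM), which were few. A single UMI lay in a peritubular myoid-like cell with 37 UMIs of the smooth muscle gene Acta2 and no UMI of Ddx4 or Dazl, and it was the only Dmrtb1 UMI among the 596 somatic cells.

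Free RNA from broken cells can place germ cell transcripts in somatic droplets, so the genes were read beside 6 germ cell markers. The level in Sertoli-like cells over that in germ cells was 0.013 for the helicase gene Ddx4, 0.021 for the RNA-binding protein gene Dazl, 0.012 for Zbtb16, 0.026 for Sohlh1, 0.050 for Tdrd1 and 0.137 for Taf4b, with a median of 0.024. Dmrt1, at 0.453, lay above all of them. In stromal-like cells its ratio of 0.018 fell within the range of the markers (0.015 to 0.096). Within the Sertoli-like class, the 6 markers together stood at 29.9 CPM in the 176 cells with a Dmrt1 UMI and at 41.8 CPM in the 79 cells without one, a ratio of 0.716 (0.437 to 1.2). For Dmrtb1, the limit of 3 counts corresponds to a ratio of 0.042. This lies above the ratios of Ddx4, Dazl, Zbtb16 and Sohlh1 and below those of Tdrd1 and Taf4b. A level as low as that of the first 4 was thus not detectable at this depth. The exact interval of the Dmrtb1 ratio ends at 0.052, which is above the ratio of Tdrd1 as well. In the other direction, 6 Sertoli markers stood in germ cells at 0.0067 (Amh) to 0.015 (Clu) times their Sertoli-like level, whereas Dmrt1 stood at 2.21 times.

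**Figure D2:**
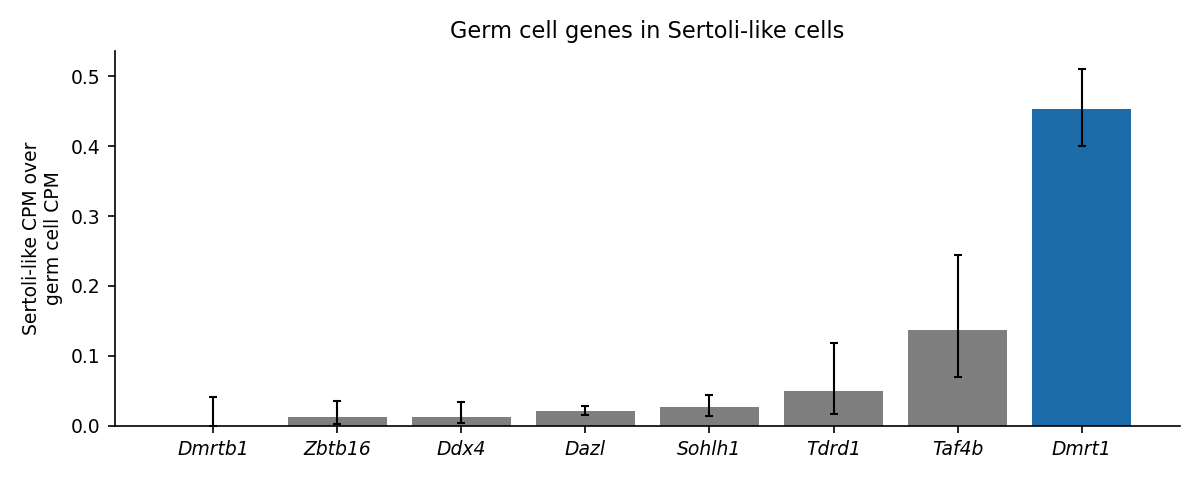
Level in Sertoli-like cells over the level in all germ cells for Dmrtb1, Dmrt1 and 6 germ cell markers; bars are ratios of CPM and lines are 95% exact intervals, ending for Dmrtb1 at the ratio that 3 counts give. Dmrt1 at 0.453 stands above every marker, of which Taf4b at 0.137 is the highest, and Dmrtb1 is at 0.

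The share of cells with a Dmrt1 UMI was 97.3% of SSC-like, 97.4% of progenitor-like, 87.5% of differentiating-like and 69.0% of Sertoli-like cells. After thinning to 5000 UMIs these became 72.6%, 73.8%, 75.9% and 50.3%, so the germ classes no longer stood apart. Thinning left out 37 of 136 differentiating-like cells, 36 of them in the Stra8 and Crabp1 cluster, but only 1 SSC-like and 7 progenitor-like cells. Within the differentiating-like class, the thinned share was 84.0% (72.9 to 91.6) in the Stra8 and Crabp1 cluster. It was 58.2% (39.1 to 75.5) in the Esx1 and Prss50 cluster. In stromal-like cells, the thinned share was 2.57% (0.64 to 5.85). Dmrtb1 UMIs were present in 41.2% of differentiating-like cells, against 25.5% in the SSC-like and 3.85% in the progenitor-like class. After thinning, the shares were 32.0% (23.3 to 42.5), 7.0% (3.22 to 14) and 1.65% (0.04 to 7.60) in the same order.

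In single cells, Dmrtb1 was found almost always beside Dmrt1. Of 324 germ cells, 86 had UMIs of both genes, 216 of Dmrt1 only, 1 of Dmrtb1 only and 21 of neither. Of the 87 cells with a Dmrtb1 UMI, 98.9% (93.8 to 100) had a Dmrt1 UMI, against 91.1% (86.8 to 94.4) of those without. The exception was a differentiating-like cell of the Esx1 and Prss50 cluster with 10878 UMIs in all, 1 of Dmrtb1 and 42 of Stra8. Both genes were found in 28 of 110 SSC-like cells and 3 of 78 progenitor-like cells. They were found in 35 of 104 cells of the Stra8 and Crabp1 cluster and 20 of 32 cells of the Esx1 and Prss50 cluster. These counts are over all UMIs and are not matched for depth.

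Co-detection was close to what the separate shares give. At 5000 UMIs, 11.6% (7.98 to 15.8) of germ cells held both genes, and the product of the shares of either gene was 10.7%. In differentiating-like cells the values were 25.6% (17.1 to 35.0) and 24.3%, and in SSC-like cells 5.41% (2.05 to 11.6) and 5.08%. The differentiating-like clusters did not stand apart in the thinned share with both genes. It was 25.2% (15.3 to 37.0) in the Stra8 and Crabp1 cluster and 26.3% (11.9 to 44.6) in the Esx1 and Prss50 cluster. The thinned share of germ cells with Dmrt1 was 79.8% among cells with Dmrtb1 and 73.1% among those without. In Sertoli-like cells, 176 held Dmrt1 only, 79 held neither gene and none held both.

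**Figure D3:**
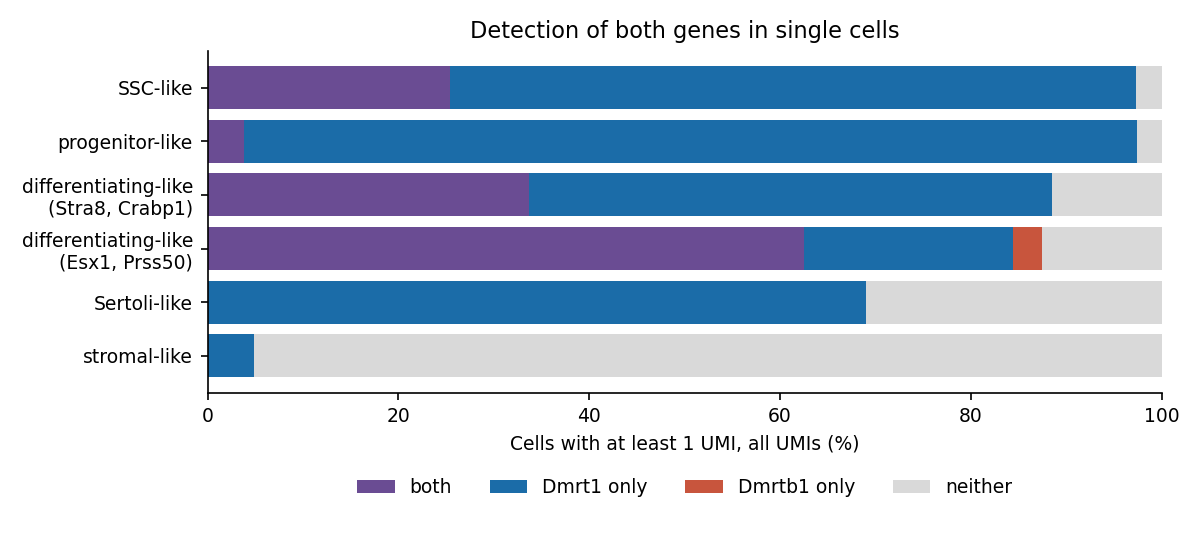
Share of cells in percent, over all UMIs, with at least 1 UMI of both genes, of Dmrt1 only, of Dmrtb1 only or of neither, by cell class. Cells with both reach 62.5% in the Esx1 and Prss50 cluster and 3.85% in progenitor-like cells, and Sertoli-like cells hold Dmrt1 only or neither. Median depth differs between classes and clusters. After thinning, the share with both is 26.3% in the Esx1 and Prss50 cluster and 25.2% in the Stra8 and Crabp1 cluster.

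To describe the genes without classes, the germ cells were ordered on the first principal component, computed without either gene, and cut into 5 bins of 64 or 65 cells. Zbtb16, a factor of undifferentiated spermatogonia, went from 168 CPM in bin 1 to 19.0 CPM in bin 5, and Kit, the receptor of differentiating spermatogonia, from 2.06 to 78.2 CPM. Gfra1, a stem cell marker, stood at 27.9, 48.9, 56.5, 26.7 and 1.06 CPM, highest in bin 3, so bins 1 to 3 do not run from stem cells to progenitors. Dmrt1 stayed flat at 295, 309, 298, 319 and 288 CPM. Dmrtb1 stood at 7.22, 4.73, 15.0, 23.6 and 123.6 CPM. Stra8, a retinoic acid response gene that is needed for meiosis, was highest in bin 4 (954 CPM, 894 to 1018) and lower in bin 5 (618 CPM, 569 to 670). Dmrtb1 was thus at its highest in bin 5, next to the bin with the most Stra8, at 124 CPM (102 to 148) against 23.6 CPM (15.0 to 35.4) in bin 4. The direction of the component was set by its correlation with Stra8, and whether the bins follow an order in time was not tested.

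**Figure D4:**
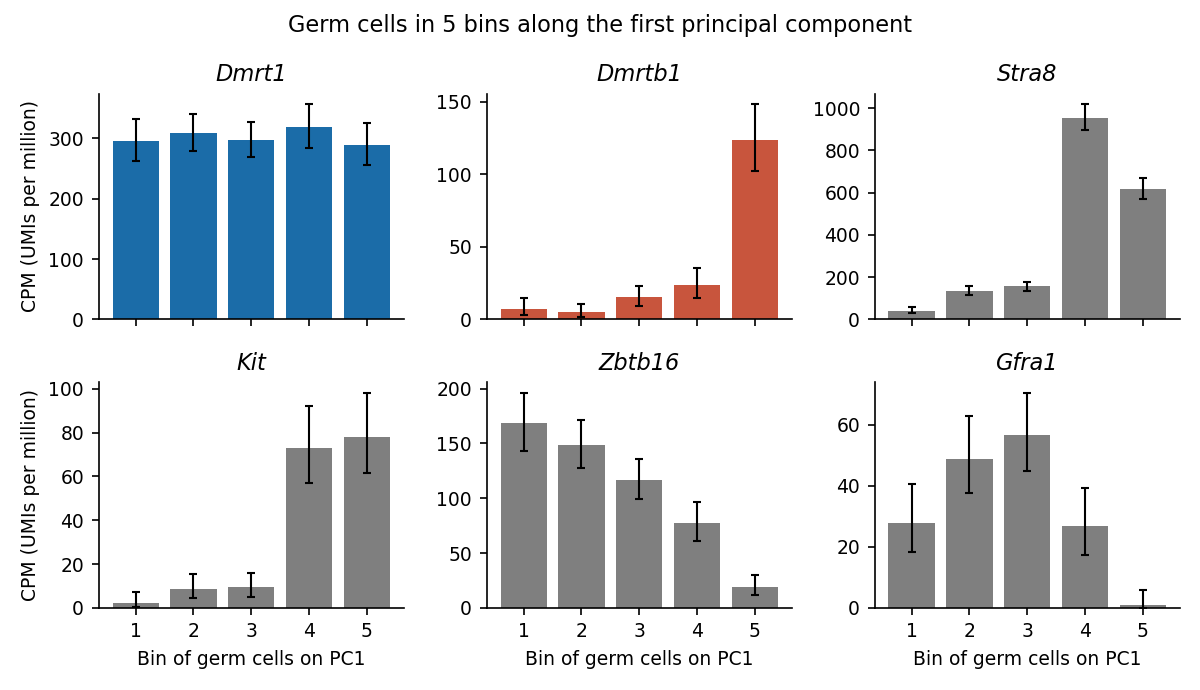
Level in CPM of both genes and of 4 stage markers in 5 bins of germ cells along the first principal component; bars are CPM and lines are 95% exact Poisson intervals. Dmrt1 stays between 288 and 319 CPM in every bin, Dmrtb1 reaches 123.6 CPM in bin 5, and Stra8 is highest in bin 4 at 954 CPM.

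The differentiating-like cells were then divided by their own Stra8 level, with limits chosen after values had been seen and cells under 5000 UMIs left out. Dmrtb1 stood at 162 CPM (132 to 198) in the 37 cells under 200 Stra8 CPM, at 89.4 CPM (52.1 to 143) in 13 cells between 200 and 600, at 31.2 CPM (13.5 to 61.5) in 15 cells between 600 and 1200, and at 15.6 CPM (6.74 to 30.8) in the 34 cells at 1200 or more. Of the 37 cells with the least Stra8, 33 had a Dmrtb1 UMI, and of the 34 cells with the most, 5 did. Cells under 600 Stra8 CPM had 6.95 times (4.10 to 12.6) the Dmrtb1 of cells at 600 or more, at median depths of 16722 and 13196 UMIs. On the log2 scale this is 2.80, and with clusters and values from separate parts of each cell's counts it was 1.68 (0.84 to 2.60). The ratio was 10.4 (4.78 to 26.7) within the Stra8 and Crabp1 cluster and 4.22 (2.02 to 9.87) within the Esx1 and Prss50 cluster. These Stra8 limits were applied to differentiating-like cells only. In SSC-like cells, Stra8 was also lower where a Dmrtb1 UMI was found (ratio 0.371, 0.245 to 0.545). A planned split took germ cells of every stage by a UMI of Stra8, Kit, Zbtb16 or Gfra1, after thinning to 5000 UMIs. Dmrtb1 stood at 31.7 CPM with and 30.5 CPM without a Stra8 UMI, a ratio of 1.04 (0.745 to 1.44). The same Dmrtb1 ratio was 3.01 (2.103 to 4.25) for Kit, 0.559 (0.387 to 0.795) for Zbtb16 and 0.1396 (0.0285 to 0.415) for Gfra1. For Dmrt1, it was 1.23 (1.06 to 1.415) for Kit and 0.792 (0.666 to 0.936) for Gfra1. The Dmrt1 intervals for Stra8 (1.01, 0.909 to 1.12) and Zbtb16 (1.098, 0.993 to 1.21) held 1.

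Dmrt1 was also higher in differentiating-like cells with less Stra8, by a smaller ratio. It stood at 369.6, 337, 324 and 236 CPM over the same bins, and its ratio below against above 600 Stra8 CPM was 1.36 (1.13 to 1.64). Among cells with at least 60 Kit CPM, Dmrtb1 stood at 148 CPM (113 to 192) in the 22 cells under 600 Stra8 CPM and at 8.46 CPM (2.31 to 21.7) in the 25 cells above, so cells with Kit were found at both ends of the Dmrtb1 range.

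**Figure D5:**
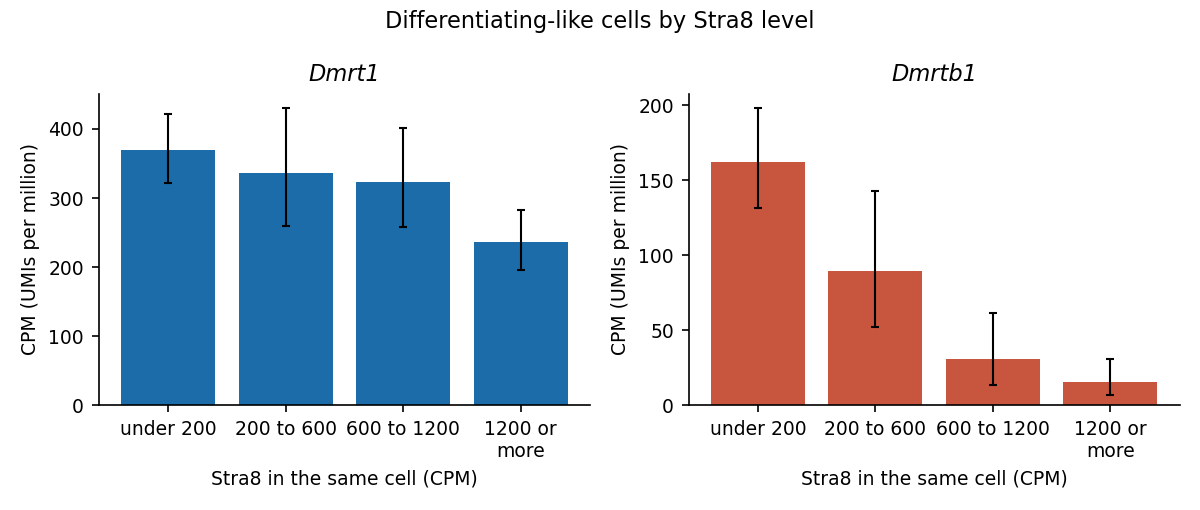
Dmrt1 (left) and Dmrtb1 (right) in CPM for differentiating-like cells of at least 5000 UMIs, divided by Stra8 CPM of the same cell; bars are CPM and lines are 95% exact Poisson intervals. Dmrtb1 goes from 162 CPM in the lowest Stra8 bin to 15.6 CPM in the highest, and Dmrt1 from 369.6 to 236 CPM.

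Differentiating-like cells with a Dmrtb1 UMI also differed from the others in Stra8, Ccnd2 and Sall4. Of these, Ccnd2 (586 against 184 CPM) and Sall4 (92.5 against 51.6 CPM) were higher in undifferentiated than in differentiating-like cells. Cells with a Dmrtb1 UMI were deeper (median of 15992.5 against 7827 UMIs), so the comparison was repeated on cells of at least 10000 UMIs, 39 with a Dmrtb1 UMI (median 17626) and 32 without (median 18890). In these, Ccnd2, a D-type cyclin gene, stood at 37.8 against 342 CPM, a ratio of 0.111 (0.071 to 0.165). Stra8 stood at 377 against 1374 CPM (ratio 0.274, 0.238 to 0.315), and Sall4, a zinc finger factor of undifferentiated and early differentiating spermatogonia, at 21.0 against 88.3 CPM (ratio 0.238, 0.125 to 0.427). Of 2126 genes with at least 100 UMIs in these cells, 0.847% were past 2-fold lower and 0.611% past 2-fold higher with Dmrtb1. Among these genes, which leave out Sall4 with its 71 UMIs, Ccnd2 had the lowest ratio and Stra8 the next. At a limit of 30 UMIs, 0.018% of 5548 genes had a lower ratio than Ccnd2, 0.234% than Sall4 and 0.433% than Stra8.

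Other regulators differed by less in these cells or by no more than counting error. Kit had a ratio of 0.929 (0.653 to 1.32), the methyltransferase gene Dnmt3b 1.15 (0.829 to 1.61) and the synaptonemal complex gene Sycp1 0.977 (0.823 to 1.16). Sohlh1, a bHLH factor of differentiation, had a ratio of 0.598 (0.483 to 0.738), and Hormad1, a meiotic chromosome axis gene, 0.424 (0.239 to 0.729). Zbtb16, a factor of undifferentiated spermatogonia, had 0.444 (0.233 to 0.818). Dmrt1 itself had a ratio of 1.15 (0.945 to 1.41). Over cells of every depth, the log2 ratio under the count split was 0.67 (−0.09 to 1.43) for Kit, against 0.08 with all counts, and 0.57 (0.22 to 0.93) for Dmrt1, against 0.26. Among genes with 100 UMIs or more in the cells of at least 10000 UMIs, 2 of 5 regulators of differentiation (Ccnd2 and Stra8) were past 2-fold lower. So was 1 of 4 meiotic genes, again Stra8, which is on both lists. No gene of these lists was past 2-fold higher. Of all 2126 genes, 0.847% were lower and 0.611% higher. Ccnd2 passed the limit through cells without Dmrtb1 (217 UMIs, against 27), so the counts are a description.

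In the 28 SSC-like cells with a Dmrtb1 UMI, Stra8 was lower than in the other SSC-like cells, and Ccnd2 and Sall4 were not. Ccnd2 stood at 820 CPM with and 678 CPM without Dmrtb1 (ratio 1.21, 1.09 to 1.34), Sall4 had a ratio of 1.15 (0.835 to 1.57) and Kit 0.866 (0.248 to 2.47). The SSC markers Etv5 (0.987, 0.655 to 1.46), Lhx1 (1.0, 0.687 to 1.44) and Bcl6b (1.06, 0.630 to 1.71) had ratios near 1. Id4 (1.47, 0.780 to 2.67), Nanos2 (1.15, 0.493 to 2.504) and Eomes (0.852, 0.202 to 2.76) had wider intervals that held 1. Stra8 (0.371, 0.245 to 0.545) and Gfra1, a GDNF receptor subunit and also a stem cell marker (0.626, 0.393 to 0.965), were lower. Of the progenitor markers, Nanos3 was higher (1.497, 1.07 to 2.07) and was the only one whose interval left out 1. The interval of Eno1 held 1 (0.853, 0.688 to 1.05). Msi2 (1.13) and Sox3 (1.55) had ratios above 1, with intervals that held 1. Upp1 (0.485), Rarg (0.185, 1 against 15 UMIs) and Neurog3 (0 against 7 UMIs) had ratios below 1, also with intervals that held 1. The Stra8 ratio rests on 30 UMIs in cells with and 224 in cells without Dmrtb1. In bin 3 of the order above, 22 of 65 germ cells held Stra8, with up to 36 UMIs in 1 cell. The interval does not cover such unevenness, and whether a few cells carry the difference was not tested. Median depths were 21410.5 and 22905.5 UMIs, and the differences between cells with and without Dmrtb1 were not compared between the classes by a test.

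The gene lists place both members among stage genes, with the caution that markers such as Stra8 and Kit also served to name the clusters. Genes such as Kit (144 differentiating-like and 27 undifferentiated UMIs) and Ret (4 and 278) passed 100 UMIs through the class where they were high. The counts are therefore a description. Of 9 factors of undifferentiated spermatogonia, 8 had 100 UMIs, 4 were past 2-fold lower in differentiating-like than in SSC-like and progenitor-like cells, and none was higher; 5.87% of all genes were past 2-fold lower. The 4 were Ret (71.9 to 2.37 CPM), Gfra1 (49.4 to 2.37 CPM), Zbtb16 (139 to 40.3 CPM) and Lin28a (69.8 to 34.4 CPM). Of 10 regulators of differentiation, 8 were measured: Stra8 (105 to 911 CPM), Kit (6.98 to 85.4 CPM) and Dnmt3b (37.7 to 104 CPM) were past 2-fold higher and Ccnd2 (586 to 184 CPM) was lower. Of 13 meiotic genes, 8 were measured and 6 were past 2-fold higher, beside 4.34% of all genes: Stra8, Sycp3, Dmc1, Hormad1, Smc1b and Tex11, at log2 ratios of 1.01 (Tex11) to 3.11 (Stra8). With clusters and values from separate parts of each cell's counts (a count split), 3 were. The limit of 100 UMIs was there applied to 1 part of the counts. Fewer genes could reach it, so this number cannot be compared directly with the 6. The median log2 ratio of the lists was −0.94, 0.61 and 1.12, beside 0.11 for all 6064 genes. Dmrtb1, at 3.09, was close to Stra8 in this ratio, and Dmrt1, at 0.08 (−0.07 to 0.23), was close to the median of all genes.

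In Sertoli-like cells, Dmrt1 was measured beside genes of testis somatic sex determination. Of 10 such genes, 9 had 100 UMIs and were past 2-fold higher than in germ cells, beside 20.5% of 7672 genes. The tenth, Fgf9, had 1 UMI in Sertoli-like and 41 in germ cells. The 9 passed the filter mostly through their Sertoli-like UMIs, and Amh, Sox9 and Wt1 also served to name the class, so the count is a description. The largest by UMIs were Amh (484 CPM), Sox9 (456 CPM), Wt1 (343 CPM) and Dhh (216 CPM). Dmrt1 was present in the same cells at 137 CPM but was past 2-fold lower than in germ cells. Of 10 genes of ovarian somatic identity, 1 had 100 UMIs: Fst, lower in Sertoli-like cells (2.18 against 21.2 CPM), beside 24.5% of all genes past 2-fold lower. Of those with fewer UMIs, Runx1 (ratio 0.105, 0.021 to 0.321), Nr5a2 (0.108, 0.013 to 0.412) and Rspo1 (0.083, 0.002 to 0.503) were also lower. So was Irx3 (0 against 29 UMIs), and the interval of Wnt4 held 1 (1.38, 0.297 to 5.44). Only Esr2, an estrogen receptor gene, was higher in Sertoli-like cells (15 against 4 UMIs, ratio 9.07, 2.89 to 37.6). Foxl2, the granulosa cell factor, had no UMI in Sertoli-like or germ cells.

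Of the 9 other genes of the DM domain family, all had fewer UMIs than Dmrt1 and all but Dmrta1 had fewer than Dmrtb1. Dmrta1 had 170 UMIs in Sertoli-like cells (74.1 CPM, 63.3 to 86.1) and 2 in all germ cells. Dmrtc1a had 71 UMIs in Sertoli-like cells (30.9 CPM) and 6 in germ cells; its X-linked neighbours Dmrtc1b, with 2 UMIs, and Dmrtc1c1 and Dmrtc1c2, with none, are its paralogs, so the counts of these genes are uncertain where reads could not be placed in 1 of them. Dmrtc2 had 36 of its 38 UMIs in germ cells and was higher in differentiating-like cells (13.0 CPM) than in undifferentiated ones (3.62 CPM), a ratio of 3.6 (1.76 to 7.62). Dmrt3, the neighbour of Dmrt1, had 52 UMIs in all kept cells, Dmrt2 had 12 and Dmrta2 had 5, mostly in germ cells. How well each gene is captured was not corrected for, so levels of different genes are compared here only as UMIs.

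Across 9 profiles (4 germ clusters and 5 somatic classes), the genes most like Dmrt1 by Pearson r of log2(CPM + 10), among 8495 genes, were 4931428F04Rik (0.987), Sbno1 (0.984), Cnot3 (0.983), Nmt2 (0.983) and Plekhh1 (0.981), and all were lower in Sertoli-like than in SSC-like cells. Those most like Dmrtb1 were Neto2 (0.978), M1ap (0.973), Swsap1 (0.970), Hormad1 (0.968) and Ccp110 (0.966). This likeness is between class levels and not between cells. In differentiating-like cells of at least 10000 UMIs, Hormad1 was lower with a Dmrtb1 UMI than without (ratio 0.424, 0.239 to 0.729). M1ap, known for a role in meiosis, stood at 209 CPM in the Esx1 and Prss50 cluster, 65.6 CPM in the Stra8 and Crabp1 cluster and 12.7 CPM in progenitor-like cells. The r of Dmrt1 with Dmrtb1 was 0.605, which put Dmrtb1 at rank 3173 among the genes compared with Dmrt1. All profiles come from 1 library, and r is a description over 9 points that share it.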

How the data were processed

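The authors aligned reads of the 10x Chromium v2 library to the mouse mm10 (GRCm38) transcriptome, with Cell Ranger 2.1.0 per the submitters' processing notes, and deposited UMI counts per gene and barcode without normalization. The 970 barcodes held 11358045 UMIs in all, between 2655 and 44915 each. Filters removed 10 barcodes under 500 genes, 36 at a mitochondrial share of 10% or more and 4 called doublets by scrublet (scanpy 1.11.5, expected rate 0.01, seed 0); further doublets may remain. In Seurat 5.3.0 (R 4.3.3), counts were log-normalized and cells clustered on variable genes by mean.var.plot, without Dmrt1 and Dmrtb1, with 14 principal components at resolution 0.5; germ cells were clustered again.

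Each cluster was named for the class with the largest mean difference of log-normalized marker expression from the other cells, and stayed unnamed with under 3 markers detected in 10% of its cells or with more of another class's markers among its top 10 genes. These were ranked by the same difference after a ranking by summed CPM had left the largest germ cluster unnamed through 1 barcode with 3604 Hba-a1 UMIs. Intervals are exact at 95% (Poisson, conditional binomial, Clopper-Pearson); a count of 0 allows up to 3 counts. Thinned shares are expected shares. PCR duplicates are removed by UMIs, and intervals cover counting error only.

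The members and lists were chosen with earlier results of these data known. Named genes are both members, the DM domain family, for each list the 2 to 4 genes with the most UMIs and any past 2-fold, and the 5 genes most like each member; the genes compared between cells with and without Dmrtb1, and the Stra8 and Kit limits, were chosen after values were seen. Simulated differentiating-like and undifferentiated counts of 27998 genes with 200 changed were used as a check, and 97.5% of the intervals of the changed genes held the true ratio. The counts were drawn from the Poisson model that the intervals assume, so this checks the calculation and not the spread between cells. The alternatives tried cover filters, variable genes, components, resolution, germ cell selection, denominator, thinning depth and a count split.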

Additional observations from a re-analysis of the deposited data

Results flagged for a closer look

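Signal of both genes lay in the 50 barcodes that the filters left out, which enter none of the comparisons. Together they held 47 Dmrt1 UMIs, or 106 CPM (77.8 to 141), and 8 Dmrtb1 UMIs, or 18.0 CPM (7.78 to 35.5), both above the level that 3 counts give (6.76 CPM). Of these, 43 Dmrt1 and all 8 Dmrtb1 UMIs were in the 36 barcodes with a mitochondrial share of 10% or more, and 3 of those barcodes held Dmrtb1. The 10 barcodes under 500 genes held neither gene, and the 4 called doublets held 4 Dmrt1 UMIs.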

How the results depend on the processing

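With 1 library, no spread between animals can be given, and the 3 Dmrtb1 UMIs in progenitor-like cells and the absence of UMIs in Sertoli-like cells are limited by depth. No paired analysis was possible because the data hold a single library, and for the same reason no replicate could be left out. Dmrtb1 had 0 UMIs in Sertoli-like cells under every alternative that formed the class. Counted as pairs of a main result and an alternative, 134 stayed within the interval of the main analysis, 16 moved past it and 1 changed sign. For the other results, 550 pairs stayed the same and 37 moved, with list counts judged by fold change. At resolution 1.2 the log2 ratio of SSC-like to progenitor-like cells for Dmrtb1 was −0.33, differentiating-like over SSC-like 3.35 and over progenitor-like 3.01 (3.13 at resolution 0.3, which formed no SSC-like class). For Dmrt1, SSC-like over progenitor-like was −0.45 without a mitochondrial limit, −0.50 with 2000 variable genes by vst, −0.44 with 20 components, −0.57 at resolution 1.2 and −0.61 with germ cells taken by a UMI of Ddx4 or Dazl. Differentiating-like over SSC-like was 0.36, 0.50 and 0.47 under the last 3 of these, and differentiating-like over progenitor-like −0.22 and −0.24 under the first 2. A mitochondrial limit of 5% kept 67 germ cells with no stage named, put Sertoli-like over germ at −1.48 for Dmrt1 and the thinned share of germ cells with both genes at 30.4%; thinning to 3000 UMIs put that share at 6.63%. The causes were not tested. Genes past 2-fold higher in differentiating-like cells numbered 147 under the count split and 689 at 30 UMIs (263 in the main analysis), and those lower 155 and 883 (356); meiotic genes among the higher fell to 3 under the count split. The ratio of Dmrtb1 across 600 Stra8 CPM was 1.68 on the log2 scale under the count split (clusters from 1 part of each cell's counts, values from the other) and 2.80 in the main analysis. Leaving out the barcode rich in Hba-a1 and restricting cells to 10000 UMIs, both chosen after seeing the data, moved none of these values past its interval. The count split gave no thinned shares.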
